A study of Homo sapiens
Mus musculus with 16 samples.

Results

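Transcripts of 9 small proline-rich protein (SPRR) genes, SPRR1A, SPRR1B, SPRR2A, SPRR2B, SPRR2D, SPRR2E, SPRR2F, SPRR2G and SPRR3, were followed in tumours of ScaBER, a long-established line of squamous carcinoma cells from human bladder. The 9 genes were chosen by their symbols in the human table, after differences of the same 16 libraries between treatments were known, so their values are given as a description and no difference among them is tested as evidence. They are 9 of the 23368 human genes listed, and all 9 were among the 17663 that passed the filter on low values. Tumours were grown in Hsd:Athymic Nude-Foxn1nu mice, which lack a working thymus and so most T cells, and were taken after 14 days of treatment. The 4 groups of 4 libraries received the combination of nintedanib at 40 mg/kg and alpelisib (BYL719) at 25 mg/kg, nintedanib alone at 40 mg/kg, alpelisib alone at 25 mg/kg, or vehicle (0.5% methylcellulose with 0.1% Tween80). The stated aim was to find what underlies the synergism of both drugs in vivo. All tumours came from the same cell line, and the labels do not tie the 4 libraries of a group to separate mice, so p-values cover only the spread between these samples, which may be technical. Nintedanib inhibits the receptor tyrosine kinases of VEGF, PDGF and FGF, and alpelisib inhibits the alpha isoform of the PI3K catalytic subunit.

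SPRR proteins are small, proline-rich and glutamine-rich precursors of the cornified envelope, the protein shell that replaces the plasma membrane of terminally differentiating keratinocytes. Transglutaminases cross-link them through their end domains, so that they bridge loricrin, involucrin and other envelope proteins. SPRR genes are expressed in the upper layers of stratified squamous epithelia and in squamous metaplasia and squamous carcinomas, and normal urothelium is not a cornifying tissue. The genes lie side by side on human chromosome 1 in the epidermal differentiation complex, which also holds the genes of loricrin, involucrin, filaggrin, the late cornified envelope proteins and many S100 proteins. In the gene order of RefSeq assembly GRCh38.p14, used for names and neighbours only, the cluster ran SPRR5, SPRR4, SPRR1A, SPRR3, SPRR1B, SPRR2D, SPRR2A, SPRR2B, SPRR2E, SPRR2F, SPRR2C and SPRR2G. SPRR2C is annotated there as a transcribed pseudogene. The SPRR2 genes are close copies of each other, and how the authors' counting treated reads that match several of them is not given in the sources used here. The split of reads between SPRR2 genes is therefore uncertain, and their sum is given beside them.

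Reads were mapped to the human and the mouse genome separately, and values of the human table are read as transcripts of the tumour cells. Each deposited value was a whole number of reads divided by a size factor of its library, and differences are taken between libraries for the same gene. Values are not scaled to transcript length, and those of different genes are not ranked against each other. Human reads ran from 8303617 in nintedanib 4 to 18568119 in combination 2, and mouse reads from 3606008 in vehicle 4 to 6850491 in combination 2. All 7 squamous carcinoma markers were above 0 in every library, with medians of 84645 for KRT5, 112650 for KRT14 and 921 for the squamous lineage factor TP63. Of the 7 luminal urothelial markers 6 were above 0 in each library. The uroplakins of umbrella cells had medians of 0 for UPK3A, 5.84 for UPK2, 24.1 for UPK1A and 37.6 for UPK1B, and KRT20, PPARG and GATA3 had medians of 3.16, 10.9 and 192. Host tissue differed between libraries. Summed skeletal muscle markers took 3.86% of the mouse total in nintedanib 4 and 2.30% in combination 1, against 0.00142% to 0.536% in the other 14. In alpelisib 1 the 13 host skin and hair markers summed to 0.297% of the mouse total, against 0.0273% to 0.0971% in the other 15. The 7 adipocyte markers summed to 0.263% in alpelisib 4, 0.157% in alpelisib 2 and 0.424% in vehicle 1, against 0.00243% to 0.0859% in the other 13. The part of host tissue in the human values was not tested beyond leaving out libraries. In such bulk tumours fewer cells of a type and less RNA per cell cannot be told apart.

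The 9 SPRR genes together took 0.0780%, 0.189%, 0.118% and 0.132% of human reads in the 4 combination libraries. Their share was 0.158%, 0.358%, 0.249% and 0.230% in nintedanib libraries, 0.245%, 0.203%, 0.177% and 0.142% in alpelisib libraries, and 0.110%, 0.163%, 0.0896% and 0.0961% in vehicle libraries. Counting error was small against these distances, with a Wilson 95% interval of 0.0765% to 0.0795% for the lowest share (combination 1) and 0.356% to 0.361% for the highest (nintedanib 2). Such intervals cover counting error only, since reads without molecular identifiers are not independent molecules. As normalized values, the 9 genes summed to 18057 ± 7158 with the combination, 35423 ± 10831 with nintedanib, 26810 ± 5893 with alpelisib and 16229 ± 4143 with vehicle (mean ± SD, n = 4 each). By group mean, nintedanib tumours thus stood highest, alpelisib tumours next, and combination and vehicle tumours lowest. Single libraries overlapped, with combination 2 (27956) above nintedanib 1 (23737) and vehicle 2 (21992) above alpelisib 4 (19833). The means of the combination and vehicle differed by less than the SD of either group.

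SPRR1A encodes cornifin-A, a cross-linked envelope precursor that is also induced in stressed cells outside the epidermis. Its values were 2415, 7347, 3936 and 4018 in combination tumours, 5365, 8005, 10895.5 and 8781 in nintedanib tumours, 8295, 7893, 5143 and 3265 in alpelisib tumours, and 4043, 5645, 3244 and 3740 in vehicle tumours. All 4 nintedanib libraries lay above 3 of the 4 vehicle libraries, but nintedanib 1 lay below vehicle 2, so those groups overlapped. Combination 1 had the lowest value of all 16 libraries and nintedanib 3 the highest. On the log2(value + 1) scale used for every difference here, SPRR1A stood at 0.97 (SE 0.31) for nintedanib minus vehicle, 0.50 for alpelisib minus vehicle and 0.0048 for combination minus vehicle (SE 0.31 each).

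SPRR1B encodes cornifin-B, the closest relative of SPRR1A and a long-used marker of squamous differentiation in airway epithelium. SPRR1B values were 4902, 10311, 6060 and 5425 with the combination, 11772, 12506, 9273 and 9670 with nintedanib, 11833, 8041, 10792 and 5188 with alpelisib, and 6634, 5912, 6292 and 5509 with vehicle. The 4 vehicle libraries lay close together, with a mean of 6087 ± 485 (SD, n = 4), and every nintedanib library lay above all of them. Alpelisib 4 lay below the whole vehicle group, and 3 of the 4 combination libraries lay within or below it. The differences from vehicle were 0.82 with nintedanib, 0.49 with alpelisib and 0.07 with the combination (SE 0.24 each).

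Among the SPRR2 genes, SPRR2A, a precursor that inflammatory cytokines can induce in epithelia, was read in every library. Its values were 454, 1959, 1333 and 852 in combination tumours, 1188, 4354, 3016 and 1476 in nintedanib tumours, 1588, 972, 2243 and 1307 in alpelisib tumours, and 725, 772, 444 and 656 in vehicle tumours. Each library given a single drug lay above every vehicle library, while combination 1 lay between vehicle 3 and vehicle 4. SPRR2G, the SPRR2 gene at the far end of the cluster, had values of 607, 1469, 1088 and 837 with the combination, 798, 4657, 2170 and 1365 with nintedanib, 1922, 1245, 1575 and 1529 with alpelisib, and 618, 634, 356 and 497 with vehicle. Here too both single-drug groups lay wholly above vehicle, and only combination 1 lay among the vehicle values. For nintedanib minus vehicle the differences were 1.78 (SE 0.38) for SPRR2A and 1.83 (SE 0.36) for SPRR2G. For alpelisib minus vehicle they were 1.20 and 1.59, and for combination minus vehicle 0.66 and 0.89, with the same SEs.

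SPRR2D and SPRR2E are further envelope precursors of the same repeat type. SPRR2D values were 607, 2109, 1227 and 930 in combination tumours, 1654, 6318, 3207 and 1695 in nintedanib tumours, 2168, 1437, 2084 and 1324 in alpelisib tumours, and 1068, 1646, 647 and 820 in vehicle tumours. SPRR2E values were 866, 2807, 2059 and 1185 in combination tumours, 2262, 11061, 5834 and 3246 in nintedanib tumours, 4555, 3361, 2690 and 2938 in alpelisib tumours, and 1641, 2396, 1132 and 1360 in vehicle tumours. In both genes nintedanib 2 was the highest and combination 1 the lowest of the 16 libraries. The lowest nintedanib library, nintedanib 1, lay just above vehicle 2 in SPRR2D and just below it in SPRR2E. For SPRR2E the difference from vehicle was 1.57 with nintedanib, 1.08 with alpelisib and -0.0074 with the combination (SE 0.38 each). SPRR2D stood at 1.48, 0.80 and 0.16 in the same comparisons (SE 0.38 each).

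SPRR2B and SPRR2F had few reads, from 11 to 655 and from 0 to 124 per library, so their values are the least precise. SPRR2B values were 11.5, 93.1, 76.4 and 23.6 with the combination, 69.6, 521, 84.0 and 90.9 with nintedanib, 187, 88.8, 71.4 and 47.1 with alpelisib, and 39.1, 58.1, 11.9 and 17.0 with vehicle. Nintedanib 2 held 655 reads of SPRR2B, and the other 3 nintedanib libraries lay within the alpelisib range. SPRR2F values were 3.14, 1.59, 9.55 and 4.04 with the combination, 0, 98.7, 41.1 and 28.6 with nintedanib, 10.6, 6.27, 12.5 and 8.38 with alpelisib, and 0.953, 19.0, 0 and 6.78 with vehicle. A count of 0 (nintedanib 1 and vehicle 3) allows values up to 2.61 and 2.55 at 3 reads per library. The nintedanib group of SPRR2F thus held both a value of 0 and the 3 highest ones, and the fitted difference of 2.17 from vehicle had an SE of 1.02.

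Summed over the 6 SPRR2 genes, values were 5153 ± 2565 with the combination, 13809 ± 9502 with nintedanib, 8343 ± 1571 with alpelisib and 3891 ± 1250 with vehicle (mean ± SD, n = 4 each). The sum does not depend on how counted reads were split between these 6 genes. Reads left out for matching several genes, or counted for SPRR2C, could still change it. The sum was lowest in combination 1 at 2549.9 and highest in nintedanib 2 at 27010.2. Differences of the sum from vehicle were 1.63 with nintedanib, 1.14 with alpelisib and 0.32 with the combination (SE 0.37 each). The sum varied most among nintedanib tumours, which also had the highest mean, with an SD of 9502 against at most 2565 in the other groups. On the log2 scale the SDs lay closer together. They were 0.97 with nintedanib, 0.75 with the combination, 0.46 with vehicle and 0.26 with alpelisib.

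SPRR3 encodes esophagin, the member typical of oral and oesophageal epithelium, which cornify little or not at all. Its values were 1070, 1858, 1635 and 2636 with the combination, 628, 2177, 1634 and 5750 with nintedanib, 3687, 3766, 1738 and 4227 with alpelisib, and 1659, 4911, 633 and 1133 with vehicle. The order of libraries was in part unlike that of the other members. Vehicle 2 was the second highest of the 16, and nintedanib 2, first in 7 other members, was in the middle. Nintedanib 1 was the lowest of the 16, as in SPRR2F together with vehicle 3. It was also the lowest nintedanib library in SPRR1A, SPRR2A, SPRR2B, SPRR2D, SPRR2E and SPRR2G. Group means were 1800 ± 648 with the combination, 2547 ± 2230 with nintedanib, 3354 ± 1104 with alpelisib and 2084 ± 1931 with vehicle (SD, n = 4 each). No neighbouring groups in this order differed beyond their spread. The nintedanib difference from vehicle was 0.28 (SE 0.53), and -0.25 without nintedanib 4.

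**Figure D1:**
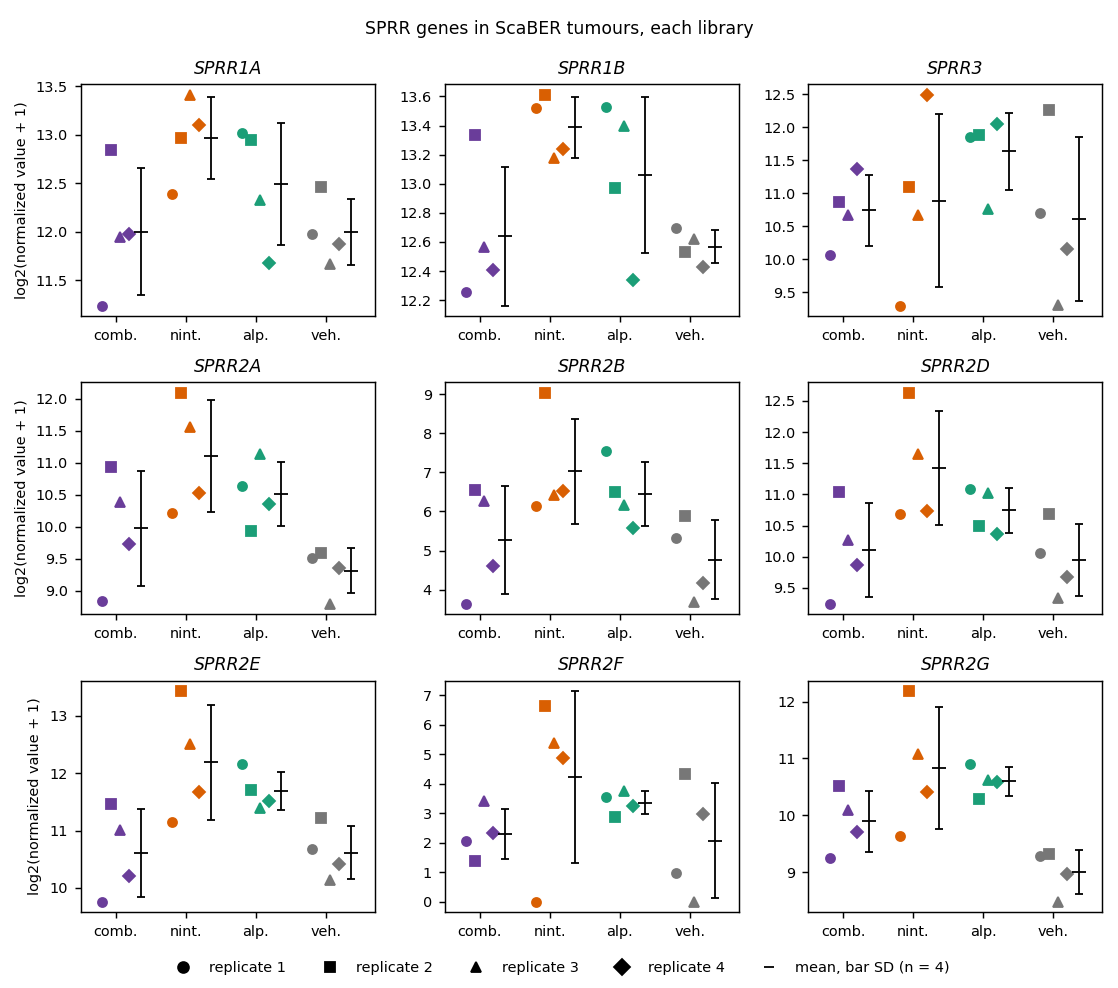
Log2(normalized value + 1) of each SPRR gene (y axis, each panel with its own range) in the 4 libraries of combination, nintedanib, alpelisib and vehicle tumours (x axis). Symbols are replicates, bars are mean ± SD (n = 4). In SPRR2A and SPRR2G both single-drug groups lie wholly above vehicle, while in SPRR1A, SPRR2F and SPRR3 all groups overlap.

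The plot of values by library shows the pattern that the following comparisons put into numbers. With nintedanib alone, all 9 SPRR genes stood above vehicle, by a median log2 difference of 1.57 and a range of 0.28 (SPRR3) to 2.26 (SPRR2B), against a median of 0.02 over all genes tested. In the limma fit over all genes 0 of 9 passed an adjusted p of 0.05, with a lowest adjusted p of 0.131 (SPRR2A and SPRR2G), and 0% of all genes passed. At an unadjusted p under 0.05 there were 8 of 9 SPRR genes and 2045 of all genes. On recovered reads edgeR called 2 genes, of which SPRR2G was 1 (adjusted p = 0.0489), and DESeq2 called 71, of which SPRR2A and SPRR2G were 2 (adjusted p = 0.015 and 0.00487). All 4 nintedanib libraries lay above all 4 vehicle libraries in SPRR1B, SPRR2A, SPRR2B, SPRR2D and SPRR2G, 5 of 9, as they did in 4.86% of all genes. The genes were chosen with this contrast known, so nothing is read from those counts. Without nintedanib 2 the median difference was 1.16, and without nintedanib 1 it was 1.92.

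With alpelisib alone, all 9 again stood above vehicle, by a median of 1.08 and a range of 0.49 (SPRR1B) to 1.69 (SPRR2B), against 0.0055 over all genes. Here 0 of 9 and 0% of all genes passed the adjusted threshold in limma, with 5 of 9 and 438 of all genes at an unadjusted p under 0.05. EdgeR called 0 genes and DESeq2 called 1, which was no SPRR gene. Groups did not overlap in SPRR2A, SPRR2E and SPRR2G, 3 of 9, as in 1.23% of all genes. The median was 0.60 without vehicle 3, and 0.96 without alpelisib 1, the library with the high host skin markers. Every comparison with vehicle rests on the same 4 vehicle libraries, so these comparisons are not independent of each other.

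With the combination, 8 of 9 SPRR genes stood above vehicle and SPRR2E just below it, with a median of 0.16 and a range of -0.0074 to 0.89 (SPRR2G), against 0.03 over all genes. In limma 0 of 9 and 0% of all genes passed, 1 of 9 (SPRR2G) and 1441 of all genes had an unadjusted p under 0.05, edgeR called 0 genes, and DESeq2 called 9 but no SPRR gene. No member's groups were separate, as was the case for 1.79% of all genes in the upward direction. This small median turned on single libraries. It was 0.36 without combination 1, 0.08 without combination 2, 0.69 without vehicle 2, -0.04 without vehicle 3 and 0.08 without vehicle 4.

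Set against each drug alone, the combination had a lower mean log2 value in all 9 SPRR genes. For combination minus nintedanib all 9 differences were below 0, with a median of -1.13 and a range of -1.94 (SPRR2F) to -0.15 (SPRR3), against 0.0079 over all genes. The SPRR3 difference had an SE of 0.53, and without nintedanib 4 it changed sign, to 0.39. SPRR2E stood at -1.58 (SE 0.38), SPRR2D at -1.32 (SE 0.38) and SPRR1A at -0.97 (SE 0.31). In limma 0 of 9 and 0% of all genes passed, with 7 of 9 and 1638 of all genes at an unadjusted p under 0.05, and edgeR and DESeq2 called 0 genes. None of the 9 had all combination libraries below all nintedanib libraries, which was so in 1.66% of all genes, since combination 2 lay above the lowest nintedanib library in each. The median was -0.75 without combination 1, the lowest library in 5 members and also 1 of the libraries rich in host muscle markers, and -0.94 without both muscle-rich libraries, an alternative chosen after seeing the data. The part of host muscle in the difference was not tested further.

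For combination minus alpelisib all 9 were again below 0, with a median of -0.71 and a range of -1.18 (SPRR2B) to -0.42 (SPRR1B), against 0.01 over all genes. SPRR2E stood at -1.09 (SE 0.38) and SPRR3 at -0.89 (SE 0.53). In limma 0 of 9 SPRR genes passed, and 1 gene of all tested did (0.00566%), the epidermal protease gene KLK10 (-1.14, adjusted p = 0.0486), named here after its value was seen. At an unadjusted p under 0.05 there were 1 of 9 (SPRR2E) and 1492 of all genes. EdgeR called 0 genes, and DESeq2 called 19, with no SPRR gene among them. None of the 9 had separate groups, as 1.49% of all genes did in the downward direction. The median was -0.49 without combination 1.

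**Figure D2:**
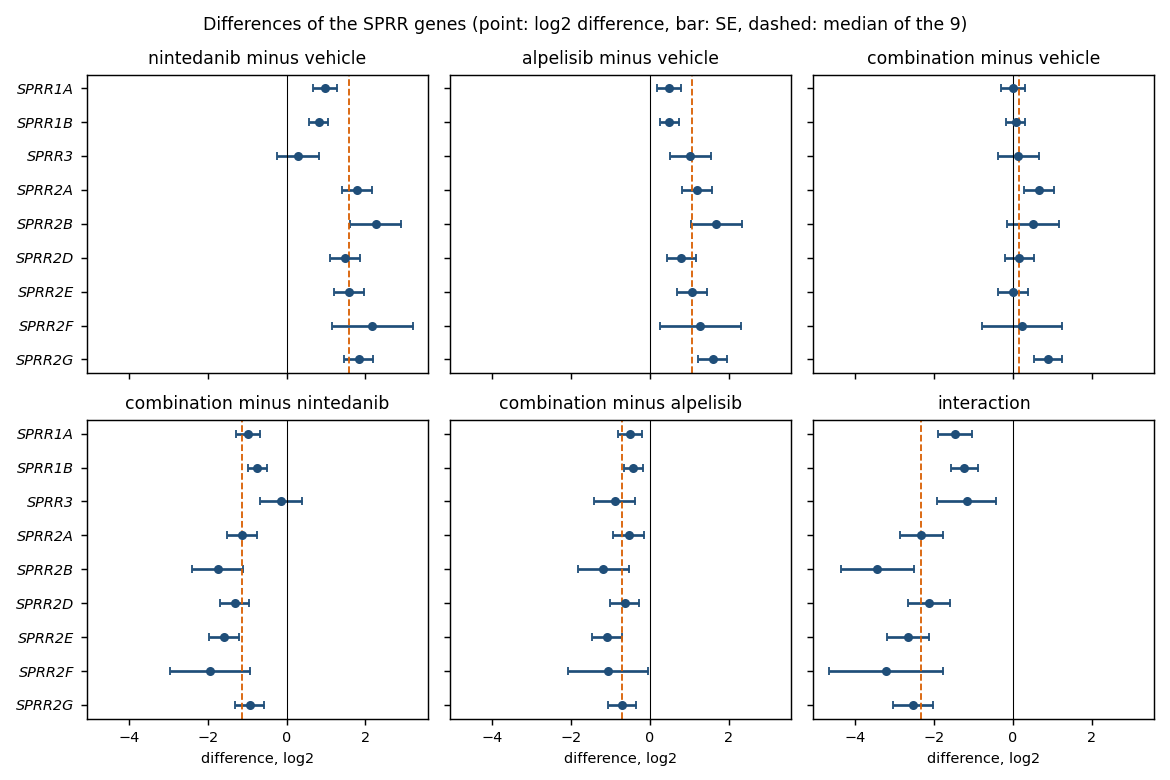
Log2 difference (x axis) of each SPRR gene (y axis) in 5 pairwise comparisons and in the interaction, with the SE of the limma fit as bars and the median of the 9 genes as a dashed line. All 9 points lie above 0 for nintedanib and for alpelisib minus vehicle, and below 0 for the combination minus either drug and for the interaction.

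The interaction asks whether the combination departs from the sum of both single-drug differences (combination minus nintedanib minus alpelisib plus vehicle). It was below 0 in all 9 SPRR genes, with a median of -2.32 and a range of -3.44 (SPRR2B) to -1.18 (SPRR3), against -0.0037 over all genes. The largest in relation to their error were SPRR2E at -2.66 (SE 0.54) and SPRR2G at -2.53 (SE 0.51), both with an adjusted p of 0.205 in limma. In limma 0 of 9 and 0% of all genes passed, and 8 of 9 and 1100 of all genes had an unadjusted p under 0.05. EdgeR called 0 genes and DESeq2 10, of which SPRR2G was 1 (adjusted p = 0.0295). Without combination 2 limma called 2 members, SPRR2E and SPRR2G (adjusted p = 0.0467 each), and without nintedanib 1 the same 2 (adjusted p = 0.0376 and 0.025). Over all single libraries left out, the median ran from -2.65 to -1.94. The plot of differences by comparison shows SPRR3 and both SPRR1 genes nearest to 0 in this term.

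The SPRR2 genes did not keep the same proportions in every group. SPRR2E made up 33.4% ± 1.92 of the SPRR2 sum in combination tumours, 40.1% ± 1.52 in nintedanib, 40.8% ± 6.98 in alpelisib and 41.9% ± 1.87 in vehicle tumours (SD, n = 4 each). All 4 combination libraries, from 30.9% to 35.5%, lay below all nintedanib libraries (37.9% to 41.1%) and all vehicle libraries (40.1% to 43.7%), and alpelisib 3 alone reached as low, at 31.0%. SPRR2G made up 20.5% ± 2.90 with the combination, 15.7% ± 1.89 with nintedanib, 18.9% ± 1.71 with alpelisib and 13.8% ± 1.65 with vehicle. Each combination and alpelisib library, from 17.4% upwards, lay above each vehicle library, of which the highest was 15.1%. The differences between combination and vehicle were -8.50 percentage points for SPRR2E and 6.68 for SPRR2G. These shares were looked at after the values were seen and carry no test, and reads that match several SPRR2 genes could move them.

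**Figure D3:**
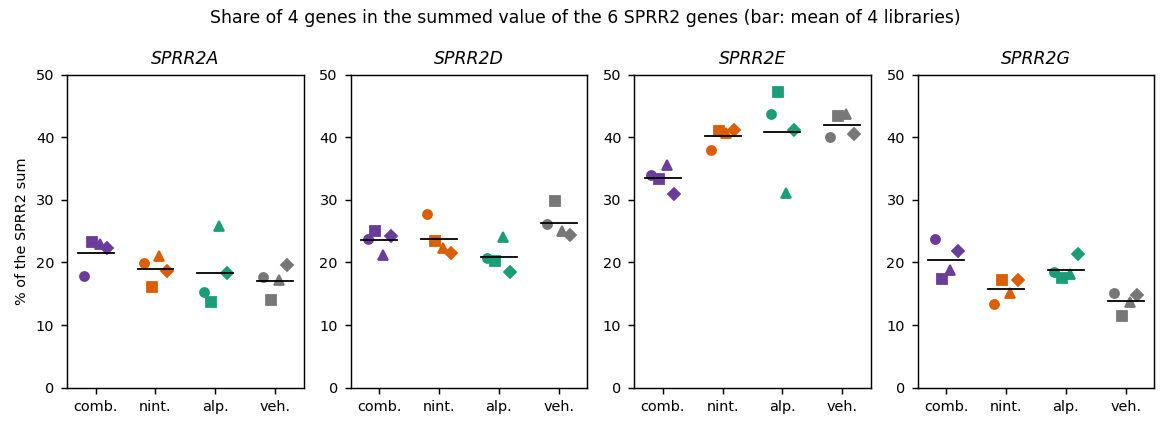
Share of SPRR2A, SPRR2D, SPRR2E and SPRR2G in the summed value of the 6 SPRR2 genes (y axis, percent, from 0) by group (x axis), with replicates as symbols and the group mean as a bar. The SPRR2E share is 30.9% to 35.5% in combination libraries and 40.1% to 43.7% in vehicle libraries.

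Across the 16 libraries SPRR2A, SPRR2B, SPRR2D, SPRR2E and SPRR2G went together closely, with a Pearson's r from 0.865 to 0.956 between them. SPRR2F had an r of 0.616 to 0.722 with these 5. Pearson's r of log2 values was 0.956 for SPRR2D with SPRR2E, 0.941 for SPRR2A with SPRR2D and 0.938 for SPRR2A with SPRR2G, and with group means removed these were 0.935, 0.92 and 0.893, so libraries of the same group shared them too. Here close copies may share reads, and all points share library and depth. SPRR2G lies apart from SPRR2A in the cluster, with SPRR2B, SPRR2E, SPRR2F and SPRR2C between them. SPRR1A correlated at 0.543 to 0.819 with the SPRR2 genes and at 0.778 with SPRR1B. SPRR3, which lies between SPRR1A and SPRR1B, had an r of 0.428 with SPRR1A and 0.037 with SPRR1B, and its highest, 0.59, with SPRR2F. Neighbours in the cluster thus did not always have the highest r. These correlations are descriptions over 16 libraries and carry no p.

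**Figure D4:**
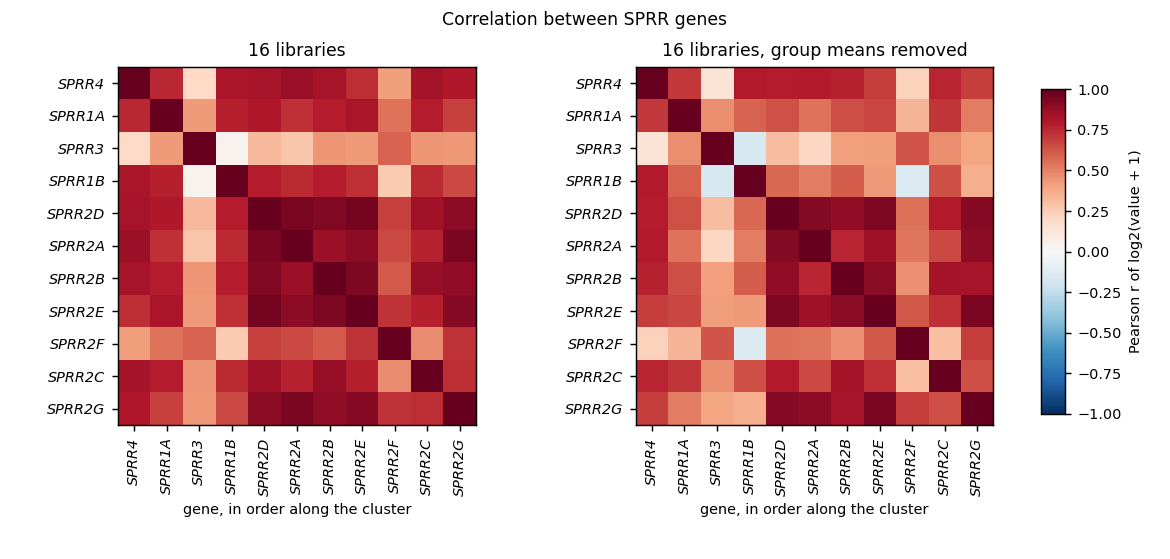
Pearson's r between log2(value + 1) of the human SPRR genes in the table, in their order along the cluster on both axes, over 16 libraries (left) and after group means were removed (right). SPRR2A, SPRR2B, SPRR2D, SPRR2E and SPRR2G form a block of high r, and SPRR3 stands apart with 0.037 to 0.59 among the 9 members.

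A mean of the 9 genes, each centred over the 16 libraries (log2 units), ranked single libraries. It was -1.21, 0.19, -0.07 and -0.56 in combination tumours, -0.47, 1.82, 0.96 and 0.70 in nintedanib tumours, 0.78, 0.26, 0.37 and 0.05 in alpelisib tumours, and -0.67, 0.12, -1.47 and -0.81 in vehicle tumours. Nintedanib thus gave both the 2 highest libraries and 1 library below the whole alpelisib group, while alpelisib libraries lay within a narrow band. Only vehicle 2 of the vehicle group overlapped the alpelisib range. Host skin markers were highest in alpelisib 1, which also led the alpelisib group here, and their part in that value was not tested. Without that library the alpelisib median stood at 0.96, as given above.

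The table also listed 2 human SPRR genes outside the 9. SPRR4, an envelope precursor that ultraviolet light induces in skin, had values of 247, 1385, 765 and 765 with the combination, 677, 1958, 1144 and 825 with nintedanib, 1094, 703, 1191 and 316 with alpelisib, and 631, 360, 318 and 268 with vehicle. Every nintedanib library exceeded every vehicle library, and the differences from vehicle were 1.501 with nintedanib, 0.98 with alpelisib and 0.84 with the combination (SE 0.44 each). The pseudogene SPRR2C averaged 121 ± 57.6 with the combination, 163 ± 42.7 with nintedanib, 127 ± 25.6 with alpelisib and 98.4 ± 43.1 with vehicle (SD, n = 4 each), and all its groups overlapped. Its interaction was -0.96 (SE 0.46), and that of SPRR4 was -1.63 (SE 0.62).

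Most host Sprr genes were close to 0. Of 15 mouse Sprr genes listed, 3 passed the filter, and 5 (Sprr2a1, Sprr2a2, Sprr2e, Sprr2g and Sprr4) were at 0 in all 16 libraries. Sprr1a had values of 0.739 to 17.2 with the combination, 1.85 to 19.9 with nintedanib, 2.08 to 36.8 in 3 alpelisib libraries and 456 in alpelisib 1, and 0 to 2.77 with vehicle. That library had the highest host skin markers. The Sprr1a differences from vehicle were 1.82 with nintedanib, 3.44 with alpelisib and 0.73 with the combination (SE 1.14 each), and the alpelisib one was 2.05 without alpelisib 1. For mouse genes 0 of 3 Sprr genes passed the limma threshold in any of these comparisons, as did 0%, 0% and 0.0515% of all 17484 mouse genes tested for nintedanib, alpelisib and the combination. Sprr2k reached at most 23.4 (nintedanib 3) and was at 0 in 3 vehicle libraries, so its fitted differences rest on few reads.

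Other genes of the cornified envelope were compared over lists chosen with earlier results known, and no list member passed the adjusted threshold in limma in any of the 6 comparisons. The 32 late cornified envelope and other genes of the epidermal differentiation complex, neighbours of the SPRR cluster, had 26 members tested. With nintedanib 22 of 26 stood above vehicle, with a median of 1.52, and with alpelisib 24 of 26, with a median of 0.99. With the combination 21 of 26 stood above vehicle, with a median of 0.81, where the SPRR median was 0.16. Examples were LCE1E at 2.10 (SE 0.46) and LCE3E at 1.75 (SE 0.40) with nintedanib, LCE1B at 2.17 (SE 0.55) with alpelisib, and LCE2C at 1.69 (SE 0.56) with the combination, all members of the late envelope family. Their interaction had a median of -1.63, with 3 of 26 above 0.

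The 23 genes of the cornified envelope and its cross-linking, among them the transglutaminase TGM1 and the scaffold proteins involucrin (IVL) and loricrin (LOR), had medians of 0.58 with nintedanib (16 above vehicle), 0.49 with alpelisib (20 above) and 0.24 with the combination (15 above). Corneodesmosin (CDSN), which glues corneocytes together, stood at 1.64 (SE 0.34) with nintedanib and 1.34 (SE 0.34) with alpelisib. Suprabasin (SBSN) stood at 1.63 (SE 0.39) with nintedanib, and the cornification protease caspase 14 (CASP14) at 1.23 (SE 0.26) with nintedanib and 1.38 (SE 0.26) with the combination. For combination minus nintedanib CDSN stood at -1.18 and IVL at -0.60 (SE 0.26), while CASP14 was 0.75 (SE 0.26) higher with the combination than with alpelisib. The interaction of CDSN was -2.52 (SE 0.49, adjusted p = 0.205 in limma), close to those of SPRR2E and SPRR2G. Over the list the interaction median was -1.17, with 20 of 23 below 0.

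Against vehicle, the medians of keratins and basal genes stood nearer to 0. The 12 suprabasal and stress keratins had medians of 0.15 with nintedanib, 0.27 with alpelisib and -0.02 with the combination. For combination minus alpelisib their median was -0.52, further from 0 than the late envelope (-0.23) and cornified envelope (-0.28) lists. Their interaction median was -0.55, with 11 of 12 below 0. KRT80, a late differentiation keratin, stood at 0.94 with nintedanib, 1.003 with alpelisib and 0.73 with the combination (SE 0.26 each), whereas KRT1, the early suprabasal keratin, was at -0.79 with the combination and at -1.12 for combination minus alpelisib (SE 0.37 each). The 13 basal layer genes had medians of 0.16, -0.14 and 0.0043 in the comparisons of nintedanib, alpelisib and the combination with vehicle. The hemidesmosome linker DST stood at 0.995 (SE 0.30) with nintedanib. The 7 squamous markers used to check the tumours had medians of 0.18, -0.04 and -0.12 in those comparisons.

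Transcription factor families, of which AP-1, ETS and KLF members act on SPRR promoters, were listed apart. The 22 epithelial ETS, KLF and grainyhead factors and other differentiation regulators had medians of 0.39 with nintedanib (20 above vehicle), 0.21 with alpelisib (18 above) and 0.20 with the combination (16 above), and -0.52 in the interaction. PRDM1, a repressor needed for cornification in mouse skin, stood at 1.49 (SE 0.38) with nintedanib. Of the epithelial ETS factors, EHF stood at 0.74 (SE 0.24) with nintedanib and ELF3 at 0.71 (SE 0.28) with alpelisib. The homeodomain protein HOPX was at 1.21 (SE 0.27) with the combination, and KLF5 at -0.66 (SE 0.22) for combination minus nintedanib. The 11 AP-1 factors, which bind the SPRR1 and SPRR2 promoters, had medians of 0.25, -0.05 and 0.36 against vehicle and of 0.09 in the interaction. For combination minus alpelisib, JUN stood at 0.53 (SE 0.24) and FOS at 0.78 (SE 0.38). The 12 Notch receptors and targets had medians of 0.02, 0.03 and 0.16 against vehicle and of 0.16 in the interaction.

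**Figure D5:**
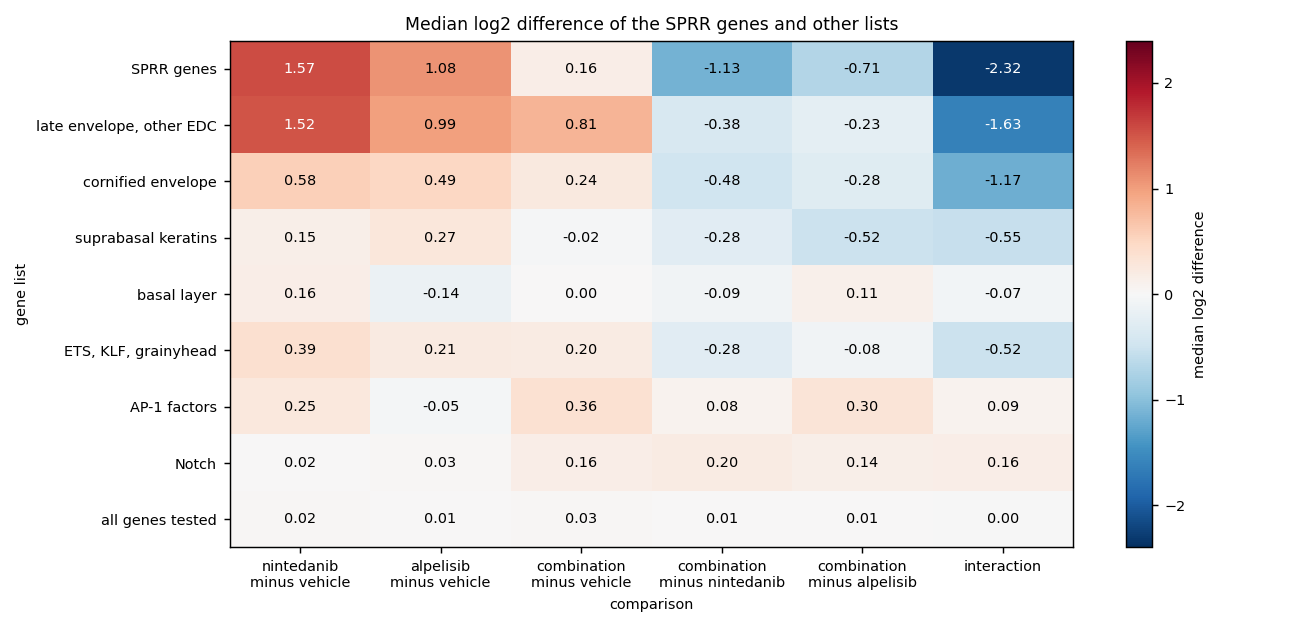
Median log2 difference (colour and number) of the SPRR genes, 7 other human gene lists and all genes tested (y axis) in 5 comparisons and the interaction (x axis). SPRR and late envelope genes have near medians for nintedanib and alpelisib minus vehicle (1.57 and 1.52, 1.08 and 0.99) but not for the combination (0.16 and 0.81), and AP-1 and Notch lists stay within 0.36 of 0 throughout.

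The map of list medians places the SPRR genes beside their genomic neighbours for each single drug. For the combination the SPRR median stood nearer to vehicle than that of those neighbours, a difference between lists that was not tested. This SPRR median ran from -0.04 to 0.69 as single libraries were left out. The genes most like the SPRR mean were sought among 8825 other genes at or above median expression, by Pearson's r over the 16 libraries. The 10 highest were CDSN (0.879), the acid phosphatase gene ACPP (0.868), LCE1E (0.86), the kallikrein KLK12 (0.856), LOR (0.847), LYNX1 (0.845), FAM25A (0.827), LCE2B (0.821), LCE3D (0.819) and SPRR2C (0.813). With group means removed their r ran from 0.645 (LCE3D) to 0.863 (KLK12), but the 10 genes were chosen by r over the same libraries, so these values are no independent support. For nintedanib minus vehicle limma called none of these 10 genes, and DESeq2 on recovered reads called CDSN, LCE1E and LCE3D (adjusted p = 0.00294, 0.0367 and 0.0466). CDSN values averaged 385 ± 219.6 with the combination, 818 ± 359 with nintedanib, 665 ± 282 with alpelisib and 246 ± 29.3 with vehicle (SD, n = 4 each), in the same order of groups as the SPRR sum. KLK12 differed in that order, with 98.2 ± 45.3 with the combination, 143 ± 58.7 with nintedanib, 183 ± 61.7 with alpelisib and 81.5 ± 40.7 with vehicle. SPRR4 had an r of 0.776 to the same mean.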

How the data were processed

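RNA from ScaBER xenograft tumours was sequenced in 16 libraries with a 3′ end kit, per the labels' protocols. TopHat with hg19 and mm10 was used, per the submitters' processing notes. The counting tool and annotation were not given in the sources used here. The deposited values are signal that the authors had scaled per library, with a value for each gene. For human and for mouse genes 100% of the values were whole reads times 1 step per library within 0.01 read, so whole reads were recovered. Human reads ran from 8303617 to 18568119 per library.

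The plan allowed for counts or normalized values, and the branch for normalized values was followed. The analysis used log2(value + 1), and this pseudocount of 1 understates changes of low genes. A gene was tested if 4 or more libraries had a value of 1 or more, which held for 17663 human and 17484 mouse genes. A mean per group was fitted to all 16 libraries with limma 3.58.1 (lmFit, eBayes with trend; R 4.3.3), with Benjamini-Hochberg adjustment over all genes of a table and a threshold of 0.05. Steps were tested on simulated data.

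Members and gene lists were chosen with earlier results of these data known. Named genes were the 9 members, other SPRR genes, at most 3 genes per list and comparison (smallest p at or above median expression) and the 10 genes most correlated with the SPRR mean. Alternatives were other pseudocounts, filters, scalings and fits, a replicate block, edgeR 4.0.16 and DESeq2 1.42.0 on recovered reads and leaving out each library. Leaving out the 2 muscle-rich libraries was added after seeing the data. No 2 libraries of a group were alike within the sampling noise of reads (lowest chi-square per degree of freedom 25.4), and each was counted as its own sample. This comparison cannot tell separate tumours from separate preparations of 1 tumour. No SPRR sequence or hg19 annotation was used here.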

Additional observations from a re-analysis of the deposited data

Results flagged for a closer look

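In 60 groups of 4 libraries, each a gene in a treatment, the gap of the highest or lowest library to its neighbour was divided by the range of the group and set against Dixon's critical value of 0.829, which chance passes in about 1 in 20 groups. It was passed 4 times. The groups share libraries and are not independent, so nothing is read from this number. SPRR2B in nintedanib 2 stood apart from the rest of its group with a ratio of 0.868 (log2 value 9.03, next 6.52). SPRR3 in alpelisib 3 was low, with 0.846 (10.76, next 11.85). Host Sprr2h in alpelisib 1 and host Sprr2k in vehicle 4 had a ratio of 1. There the other 3 libraries of each group were at 0, and with such ties the rate of 1 in 20 does not hold.

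In several SPRR2 genes all 4 libraries given a drug alone lay above the vehicle mean (log2 scale), while all 4 combination libraries lay below the mean of the other drug alone. The libraries are set against group means here, and the groups themselves overlapped in part. For alpelisib, the effect with nintedanib minus the effect without it was -2.32 for SPRR2A (-1.13 with nintedanib, 1.20 without), -3.44 for SPRR2B (-1.75 and 1.69), -2.12 for SPRR2D (-1.32 and 0.80), -2.66 for SPRR2E (-1.58 and 1.08), -3.23 for SPRR2F (-1.94 and 1.29) and -2.53 for SPRR2G (-0.94 and 1.59). For nintedanib, the effect with alpelisib minus the effect without it met the same condition in SPRR2E, at -2.66 (-1.09 and 1.57), and SPRR2G, at -2.53 (-0.71 and 1.83). In the other 7 members the mean nintedanib effect was also above 0 without alpelisib and below 0 with it, but at least 1 library lay on the other side of the mean. The mean of the 9 genes gave -2.24 in both directions (-1.17 and 1.07 for alpelisib, -0.78 and 1.46 for nintedanib). These differences are the interaction of the report. Its limma adjusted p was 0.205 for SPRR2E and SPRR2G and above that for the others, and the difference of the mean was not tested.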

How the results depend on the processing

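The SPRR median kept its direction in all 6 comparisons under every alternative run except combination minus vehicle without vehicle 3. Leaving out single libraries, it ran from 1.16 to 1.92 for nintedanib minus vehicle, 0.60 to 1.29 for alpelisib minus vehicle, -0.04 to 0.69 for combination minus vehicle, -1.45 to -0.75 for combination minus nintedanib, -0.92 to -0.49 for combination minus alpelisib and -2.65 to -1.94 in the interaction. No scaling moved the median of all genes by over 0.1. Counts of calls moved more, and the cause was not tested. For nintedanib minus vehicle (0 human genes) there was 1 with no filter, without the trend or with only the groups compared, 2 with edgeR, 71 with DESeq2 and 0 to 4 without single libraries. SPRR calls there were 1 with edgeR, 2 with DESeq2 and 0 to 1 without single libraries. Alpelisib minus vehicle (0) gave 1 with DESeq2 and 0 to 1 without single libraries, and combination minus vehicle (0) gave 9 with DESeq2 and 0 to 0. Combination minus nintedanib (0) gave 1 with no filter, 2 without the trend and 0 to 123 without single libraries (123 without combination 4). Combination minus alpelisib (1) gave 0 with a pseudocount of 0.1, no filter, quantile normalization, only the groups compared and edgeR, 19 with DESeq2, 0 to 1 without single libraries and 14 without the 2 muscle-rich ones, the alternative chosen after seeing the data. The interaction (0) gave 2 without the trend, 10 with DESeq2 (1 SPRR gene) and 0 to 8 without single libraries (0 to 2 SPRR genes); a fit of only the groups compared is the same fit there. Mouse genes for nintedanib (0) were 1 with only the groups compared, 29 with DESeq2, 3 without the muscle-rich libraries and 0 to 3 without single ones, for alpelisib (0) 1 with DESeq2 and 0 to 0, and for the combination (9) 1 with scaling to human plus mouse reads, 0 without the trend or with only the groups compared, 75 with DESeq2, 24 without the muscle-rich libraries and 0 to 16 without single ones. With replicate number as a block, calls were 8 (SPRR2G among them), 1, 0, 0, 0 and 3 (SPRR2E among them) in the 6 human comparisons and 0, 0 and 3 in mouse, with 1 SPRR call each for nintedanib minus vehicle (adjusted p = 0.0475) and the interaction (adjusted p = 0.0445). The labels do not say whether the numbers pair the samples, and correlations between so few libraries cannot settle it. Of 24 same-numbered pairs 10 had correlated deviations over 0.1 (median r -0.04, range -0.548 to 0.514). Of 16 libraries 5 correlated best with their own number. Depth limits SPRR2B and SPRR2F most.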
